A study of Mus musculus with 6 samples.

Results

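Fibronectin (Fn1) and 9 secreted glycoproteins of the matricellular kind, tenascin C (Tnc), periostin (Postn), osteonectin (Sparc), osteopontin (Spp1), thrombospondins 1 and 2 (Thbs1, Thbs2), Cthrc1, Fstl1 and Tgfbi, were followed by gene symbol. All 10 were among the 19865 symbols of the count tables, and all 10 passed the filter on low counts. The cells were primary lung fibroblasts of C57BL/6 strain from Col1a2-GFP transgenic mice, in which the promoter of Col1a2 drives a green fluorescent protein. They were transduced by retrovirus with trSrebf1, the active, truncated form of Srebf1c, a transcription factor of lipid synthesis, or with a control vector, each marked by hLNGFR. Host C57BL/6 mice of both groups had received 2 mg/kg of bleomycin, which injures the lung and leads to fibrosis. Cells entered the airways on day 5, doxycycline, the inducer of trSrebf1, was given on day 7, and donor cells were sorted on day 10. There were 3 control and 3 trSrebf1 libraries of 10000 sorted cells each. The gate required the Col1a2 reporter, so the cells had been selected for activity of a collagen promoter. The labels give neither the age of the mice nor whether the libraries of a group came from separate mice, pooled mice or separate cultures, so the spread behind each p-value is that between libraries and may be technical.

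Fibronectin is assembled by cells into fibrils, mainly through the integrin made of Itga5 and Itgb1, and these fibrils serve as a scaffold on which collagen and latent transforming growth factor beta (TGF-beta) are laid down. Matricellular proteins are secreted into the same matrix but act chiefly on cell adhesion, growth factor activity and collagen assembly. Many of them are scarce in resting adult tissue and abundant in wounds and in fibrotic lung.

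Library totals ran from 3675146 to 4688196 counts. Values are CPM, counts scaled to a common library total, with TMM factors that correct for differences in RNA composition. As a check of the label, Srebf1 tags numbered 32, 20 and 33 in control and 133, 123 and 108 in trSrebf1 libraries, although a 3' tag may lie outside a truncated transgene. All 9 fibroblast markers examined were present. Of these, 7 fell and 1 (Pdgfrb) rose, where 13.0% of all tested genes fell and 17.2% rose. Col1a1 did not pass the test (log2 fold change 0.12, edgeR adjusted p = 0.419). The summed level of the 9 was 42575 to 54864 CPM in control and 30786 to 35508 CPM in trSrebf1 libraries. Vim gave the most to this sum (means of 17017 CPM in control and 11135 in trSrebf1), which includes collagen genes. Apart from Vim, nearly all of the sum came from collagen and other matrix genes, so it is no separate measure of fibroblast content. The difference in the sum moved with the lower matrix genes described here, and its part in their change was not tested. Each library held 10000 cells sorted on the Col1a2 reporter. Within such bulk samples a smaller share of a kind of cell and less RNA per cell cannot be told apart.

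The count of members past the test was 7 of 10, where 30.2% of all 10194 tested genes passed (edgeR, threshold of 0.05 on adjusted p). Spp1 and Tgfbi rose, whereas 17.2% of all tested genes rose. Fn1, Fstl1, Thbs1, Thbs2 and Cthrc1 fell, whereas 13.0% of all tested genes fell. Tnc, Postn and Sparc did not pass. Values of control and trSrebf1 libraries were fully apart for 7 of the 10 members, against 43.4% of all tested genes. The median log2 fold change of the members was -0.44, beside -0.01 over all tested genes.

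The promoters of the members that rose, followed by those that fell, are shown for the 4 that passed the test and have an entry in the RefSeq table (build GRCm38.p6), from 250 bases before to 50 after the start site. Capitals mark TATAAA or its reverse complement. Spp1 lies at chr5:104434861-104435160 (plus strand), Tgfbi at chr13:56609336-56609635 (plus), Fstl1 at chr16:37776805-37777104 (plus) and Thbs2 at chr17:14694213-14694512 (minus).
Spp1: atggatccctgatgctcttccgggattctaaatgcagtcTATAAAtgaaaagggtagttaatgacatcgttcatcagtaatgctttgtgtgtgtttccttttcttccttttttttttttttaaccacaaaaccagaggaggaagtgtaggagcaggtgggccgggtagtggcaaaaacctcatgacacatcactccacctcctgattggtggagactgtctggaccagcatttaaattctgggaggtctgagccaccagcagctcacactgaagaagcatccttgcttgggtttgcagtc
Tgfbi: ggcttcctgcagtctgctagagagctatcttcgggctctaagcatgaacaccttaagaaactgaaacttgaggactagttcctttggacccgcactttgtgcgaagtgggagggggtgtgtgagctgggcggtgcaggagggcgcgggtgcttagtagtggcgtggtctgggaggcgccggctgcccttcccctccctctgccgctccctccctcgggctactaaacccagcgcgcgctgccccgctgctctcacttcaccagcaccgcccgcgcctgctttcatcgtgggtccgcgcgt
Fstl1: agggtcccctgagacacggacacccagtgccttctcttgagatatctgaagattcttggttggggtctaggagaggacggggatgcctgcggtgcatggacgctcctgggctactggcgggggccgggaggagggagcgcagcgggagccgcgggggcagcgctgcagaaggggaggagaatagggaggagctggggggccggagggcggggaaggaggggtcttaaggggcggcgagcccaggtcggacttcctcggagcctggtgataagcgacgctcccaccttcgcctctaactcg
Thbs2: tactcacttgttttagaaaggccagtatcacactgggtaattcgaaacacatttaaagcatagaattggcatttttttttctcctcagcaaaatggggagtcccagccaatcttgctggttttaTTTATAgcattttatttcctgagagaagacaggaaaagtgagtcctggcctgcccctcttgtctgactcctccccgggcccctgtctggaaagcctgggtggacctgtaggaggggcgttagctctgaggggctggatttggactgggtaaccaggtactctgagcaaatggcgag

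Entries were found for 7 of the 10 members, and those without were Fn1, Thbs1 and Cthrc1. The start site of the Sparc window lies 3103 bases from the start of the gene in GENCODE, so that window may not be the main promoter. Both strands were searched for 4 motifs. The consensus sterol regulatory element, to which sterol regulatory element binding proteins bind, was in 0 of the 7 windows and in 0.0913% of all 32851 promoter windows of 300 bases. The palindromic E-box CACGTG, also bound by these factors, was in 0 of 7 and in 7.15% of all windows. The AP-1 site TGANTCA was in 0 of 7 and in 7.81%. TATAAA was in 4 of 7 (Tnc, Postn, Spp1 and Thbs2) and in 13.6% of all windows, and the motifs do not overlap in these 4 windows. The match began 26 bases before the start site in Postn, 126 bases before it in Tnc and 211 bases before it in Spp1. In Thbs2 it was the reverse complement, 126 bases before the start site. A missing match says only that these letters are not in the window.

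Fn1 (chromosome 1, 71585520 to 71653200, minus strand, GRCm38) encodes fibronectin. It stood at 1429, 1181 and 1271 CPM in the control libraries and at 787, 825 and 816 CPM in the trSrebf1 libraries. Every trSrebf1 library was below every control library. Fn1 fell 1.60-fold (log2 fold change -0.68, SE 0.10, 95% interval -0.89 to -0.46, adjusted p = 5.75e-05). The spread between control libraries was 9.69% of their mean, larger than the 1.40% that counting alone gives at this depth. A 3' tag does not tell the spliced forms of fibronectin apart.

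Sparc (chromosome 11, 55394500 to 55423183, minus strand) encodes a collagen-binding protein that takes part in collagen fibril assembly. Its values were 39723, 36655 and 35844 CPM in control and 29812, 36942 and 33202 CPM in trSrebf1 libraries. The groups overlapped, since trSrebf1 replicate 2 exceeded control replicates 2 and 3. The log2 fold change was -0.17 (SE 0.10, 95% interval -0.37 to 0.03, adjusted p = 0.215). With library totals alone as the scale it was -0.24 and passed the test (adjusted p = 0.0182).

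Fstl1 (chromosome 16, 37776873 to 37836514, plus strand) encodes a secreted follistatin-like protein with a calcium-binding region related to that of Sparc, and it is known as a modulator of bone morphogenetic protein and TGF-beta signals. It stood at 28416, 26045 and 23533 CPM in control and at 13498, 14625 and 12415 CPM in trSrebf1 libraries. All 3 trSrebf1 libraries lay far below the lowest control library. Fstl1 fell 1.92-fold (log2 fold change -0.94, SE 0.10, adjusted p = 9.50e-07). Sparc and Fstl1 gave most of the tags of the whole group of genes. Sparc took 3.81% of all counts in control and 3.23% in trSrebf1, and Fstl1 took 2.65% and 1.31% (means of 3 libraries). The 10 genes together took 6.40% to 6.99% of the counts in control and 4.59% to 5.21% in trSrebf1 libraries. Such shares also move with the lysosomal protease gene Ctsd, whose share was 0.860% to 0.953% in control and 6.53% to 6.81% in trSrebf1.

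**Figure D1:**
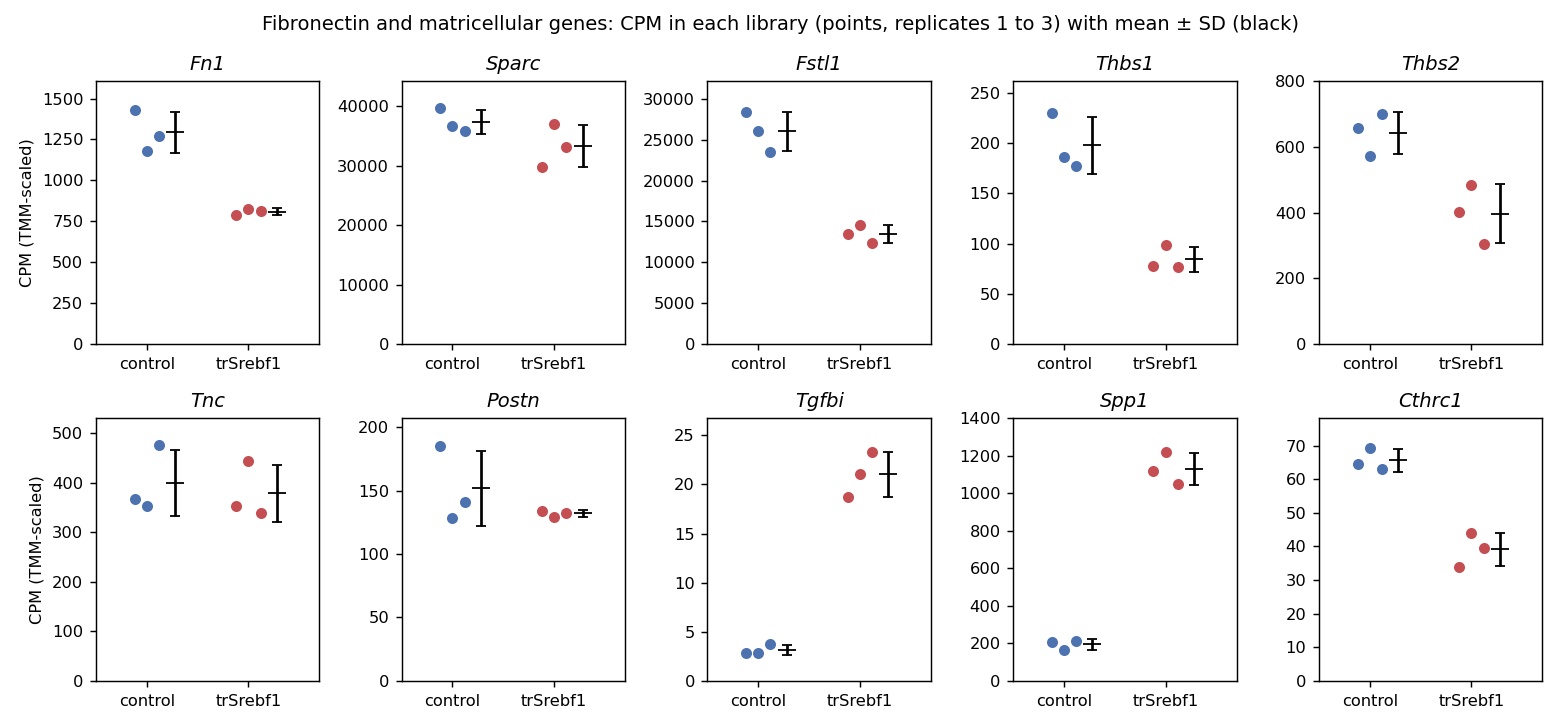
CPM of the 10 genes (vertical axes, linear from 0, scale differs by gene) in the 3 control and 3 trSrebf1 libraries (points), with the mean ± SD of each group in black. Points of the groups are apart for Fn1, Fstl1, Thbs1, Thbs2 and Cthrc1, which were lower in trSrebf1, and for Spp1 and Tgfbi, which were higher; they overlap for Sparc, Tnc and Postn.

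Thbs1 and Thbs2 are the thrombospondins that form trimers. Thbs1 (chromosome 2, 118111876 to 118127133, plus strand) binds Cd47 and Cd36 and can release TGF-beta from its latent form. It was counted at 230, 186 and 177 CPM in control and at 77.9, 99.0 and 76.7 CPM in trSrebf1 libraries, with no overlap. Thbs1 fell 2.34-fold (log2 fold change -1.23, SE 0.14, adjusted p = 1.83e-06), which was the largest fall among the 10 genes. Ordered by fold change it was number 446 from the lower end of the 10194 tested genes.

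Thbs2 (chromosome 17, 14665500 to 14694235, minus strand) is known for its part in collagen fibril organisation and in the clearance of the protease Mmp2. It stood at 658, 572 and 699 CPM in control and at 401, 485 and 306 CPM in trSrebf1 libraries. The groups did not overlap, but trSrebf1 libraries differed among themselves by more than those of control, with a spread of 22.5% of the mean. Thbs2 fell 1.62-fold (log2 fold change -0.69, SE 0.14, adjusted p = 0.00151).

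The change of Thbs1 was compared with that of Thbs2 through their ratio within each library, which does not depend on scaling. The log2 ratio of Thbs1 to Thbs2 was -1.71 ± 0.24 in control and -2.22 ± 0.20 in trSrebf1 (n = 3 per group, SD), a difference of -0.51. Control replicate 3 (-1.98) and trSrebf1 replicate 3 (-2.00) nearly met. An exact two-sided permutation test gave p = 0.1, also 0.1 when adjusted over the 2 ratios tested, the smallest value that 3 against 3 libraries allow. With 1 library left out, the difference ran from -0.65 to -0.42 and the p of the same test from 0.1 to 0.2.

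Tnc (chromosome 4, 63959785 to 64047015, minus strand) encodes a large protein of provisional matrix that loosens the adhesion of cells to fibronectin. Its values were 368, 354 and 476 CPM in control and 353, 445 and 339 CPM in trSrebf1 libraries. In each group 1 library stood above the others, and the groups overlapped. The log2 fold change was -0.07 (SE 0.13, 95% interval -0.36 to 0.21, adjusted p = 0.725). It was 0.055 without control replicate 3 and 0.0041 without trSrebf1 replicate 3, so the data give no direction for Tnc.

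Postn (chromosome 3, 54361109 to 54391037, plus strand) and Tgfbi (chromosome 13, 56609523 to 56639562, plus strand) encode the secreted proteins built of fasciclin domains. Periostin is deposited by activated fibroblasts and links collagen with other matrix proteins. Postn stood at 185, 128 and 141 CPM in control and at 134, 129 and 133 CPM in trSrebf1 libraries. Control replicate 1 lay above the other 5 libraries, which were close together. The log2 fold change was -0.20 (SE 0.13, 95% interval -0.48 to 0.08, adjusted p = 0.288), and -0.03 without control replicate 1.

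Tgfbi, named for its induction by TGF-beta, encodes a protein that binds collagens and integrins. It was counted at 2.88, 2.84 and 3.77 CPM in control and at 18.7, 21.1 and 23.3 CPM in trSrebf1 libraries. These values rest on 11, 11 and 16 tags in control and 87, 83 and 102 in trSrebf1. Every trSrebf1 library was far above every control library. Tgfbi rose 6.56-fold (log2 fold change 2.71, SE 0.26, 95% interval 2.16 to 3.27, adjusted p = 3.99e-07), and was number 212 from the upper end of all tested genes. At such low counts, counting alone gives an error of 28.4% on average over the 3 control values, and of 30.2% at 11 tags.

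The log2 ratio of Tgfbi to Postn was -5.58 ± 0.40 in control and -2.66 ± 0.17 in trSrebf1 (n = 3 per group, SD). The difference of 2.92 was larger than the spread in either group. Its exact two-sided permutation p was 0.1, also 0.1 when adjusted over the 2 ratios.

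**Figure D2:**
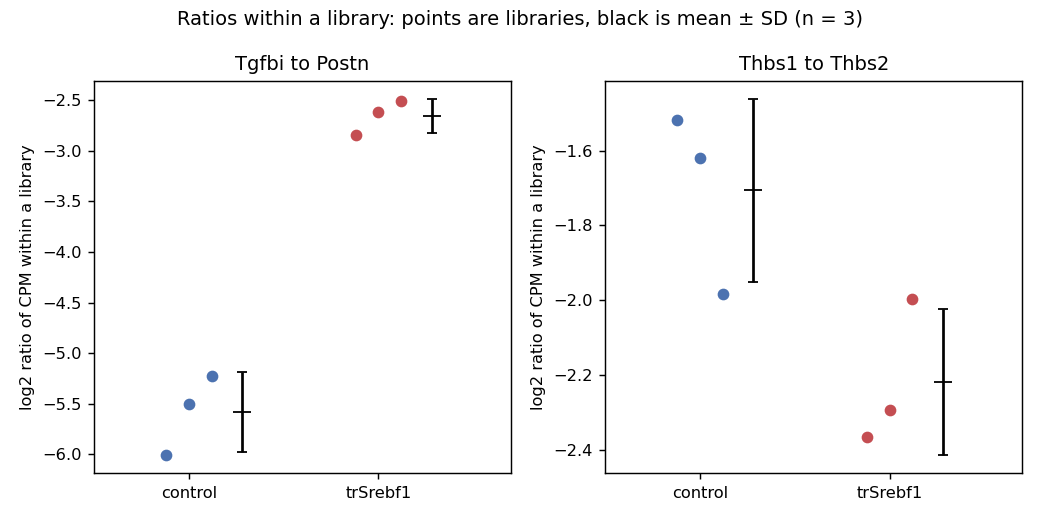
Log2 ratio of CPM within each library (points) for Tgfbi to Postn and Thbs1 to Thbs2, with the mean ± SD of 3 libraries in black; the vertical axes do not start at 0. Ratios of Tgfbi to Postn are -5.58 in control and -2.66 in trSrebf1, and those of Thbs1 to Thbs2 are -1.71 and -2.22.

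Spp1 (chromosome 5, 104435118 to 104441050, plus strand) encodes osteopontin, a phosphoprotein that binds integrins and Cd44 and is made by macrophages as well as by mesenchymal cells. It stood at 207, 162 and 215 CPM in control and at 1119, 1222 and 1052 CPM in trSrebf1 libraries. All trSrebf1 libraries were far above all control libraries, and the spread within either group was small beside the difference. Spp1 rose 5.81-fold (log2 fold change 2.54, SE 0.12, 95% interval 2.28 to 2.80, adjusted p = 7.44e-11), number 243 from the upper end of all tested genes.

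Since macrophages make osteopontin, their markers were read in the same libraries. Of 12 macrophage markers 9 had a row in the tables, and Ptprc, Adgre1 and Marco had none. The 9 summed to 11.6 to 15.5 CPM in control and to 11.2 to 16.0 CPM in trSrebf1 libraries. Most of this sum came from Cd163 and Tyrobp, which differed in direction. Cd163 stood at 6.68 CPM in control and 11.1 in trSrebf1 (log2 fold change 0.73, adjusted p = 0.0732), and Tyrobp fell from 4.57 to 0.84 CPM (log2 fold change -2.39, adjusted p = 0.00374). Csf1r stood at 0.09 and 0.71 CPM, Lyz2 at 0.59 and 0.32 CPM and Cd68 at 0.43 and 0.08 CPM in control and trSrebf1 (means of 3 libraries).

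Cthrc1 (chromosome 15, 39076932 to 39087121, plus strand) encodes a secreted protein with a short collagen-like stretch and marks activated, collagen-rich fibroblasts in fibrotic lung. It was counted at 64.5, 69.4 and 63.0 CPM in control and at 34.0, 43.9 and 39.5 CPM in trSrebf1 libraries. The groups did not overlap. Cthrc1 fell 1.68-fold (log2 fold change -0.75, SE 0.15, 95% interval -1.06 to -0.44, adjusted p = 7.92e-04).

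**Figure D3:**
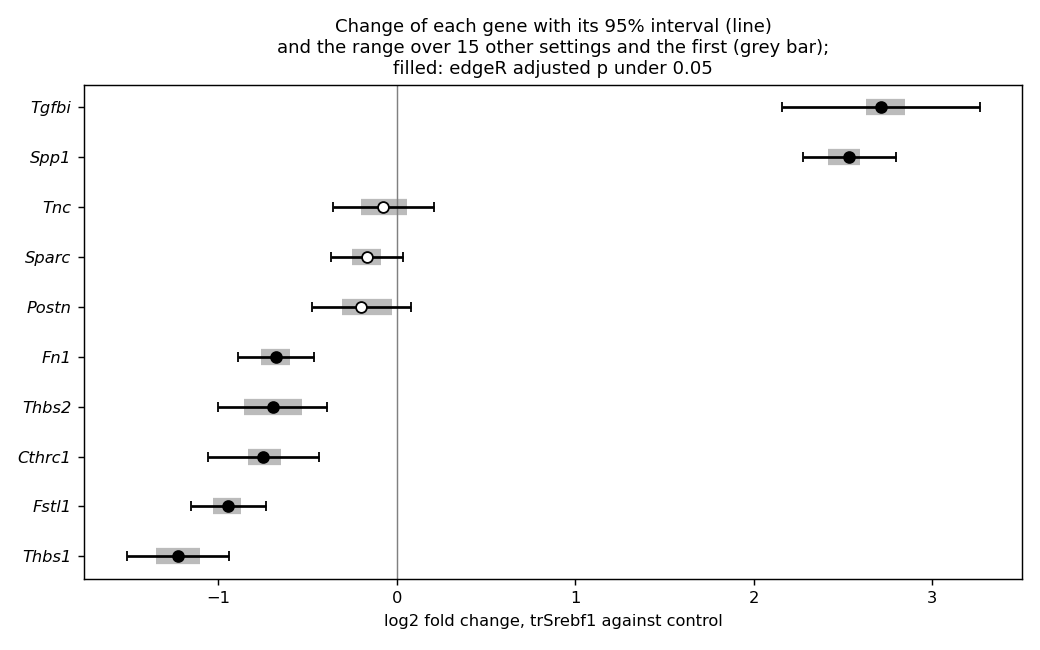
Log2 fold change of each gene, trSrebf1 against control (horizontal axis), with its 95% interval (line) and the range over the first analysis and 15 other settings (grey bar); filled points passed the test. Tgfbi (2.71) and Spp1 (2.54) lie to the right, Thbs1 (-1.23) lies farthest to the left, and the intervals of Tnc, Sparc and Postn span 0.

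Genes of the same protein families and other adhesive matrix glycoproteins were read from a list of 25, of which 18 had a row and 12 passed the filter on low counts. Of these 12, 8 fell, 2 rose and 2 did not pass the test, where 13.0% of all tested genes fell and 17.2% rose, with a median log2 fold change of -0.81 beside -0.01 over all tested genes. Sparcl1, the closest relative of Sparc on the list, fell from 266, 186 and 140 CPM in control to 74.8, 84.8 and 72.9 CPM in trSrebf1 libraries (log2 fold change -1.35, SE 0.20, adjusted p = 4.16e-04). The follistatin-like Fstl3, an activin-binding protein, fell by 1.15 on the log2 scale (SE 0.19). Of the nidogens, basement membrane proteins, Nid2 fell by 1.36 (SE 0.25) and Nid1 fell by 0.76 (SE 0.15).

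Both genes of this list that rose belong to families whose members above did not rise. Comp, a thrombospondin of cartilage and tendon that forms pentamers, rose from 0.79, 1.55 and 1.65 CPM in control to 6.88, 10.9 and 9.14 CPM in trSrebf1 libraries. Its log2 fold change was 2.71 (SE 0.39, adjusted p = 3.91e-05), on 3 to 7 tags in control and 32 to 43 in trSrebf1. Tnn, a tenascin named here after its values were seen, rose from 42.2, 17.3 and 38.0 to 68.0, 53.0 and 55.5 CPM (log2 fold change 0.86, SE 0.27, adjusted p = 0.0344). The call of Tnn was lost with upper-quartile factors (adjusted p = 0.0568) and without trSrebf1 replicate 1 (0.127), replicate 2 (0.0555) or replicate 3 (0.0946). Over all alternatives its adjusted p ran from 3.75e-06 to 0.127. The other tested tenascin and the other tested thrombospondin of this list, also named after their values were seen, fell. Tnxb went from 6.56, 2.58 and 2.83 CPM to 1.08, 0.00 and 0.46 CPM (log2 fold change -2.82, SE 0.68, adjusted p = 0.00379), on 0 to 5 tags in trSrebf1. Thbs3 went from 49.0, 35.6 and 42.7 to 24.9, 22.8 and 21.5 CPM (log2 fold change -0.88, SE 0.17, adjusted p = 6.83e-04).

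The receptors of these proteins were read from a list of 17, of which 15 were tested. Of these, 4 rose, 3 fell and 8 did not pass the test, where 17.2% of all tested genes rose and 13.0% fell. The median log2 fold change was -0.14, beside -0.01 over all tested genes. Among the integrins, Itga8, which pairs with Itgb1 and binds fibronectin, tenascin C and osteopontin, fell from 44.8, 43.3 and 48.1 CPM in control to 6.24, 12.9 and 13.5 CPM in trSrebf1 libraries. Its log2 fold change was -2.07 (SE 0.23, adjusted p = 1.96e-06). Itga9, a tenascin and osteopontin receptor subunit named after its values were seen, fell by 1.17 (SE 0.28, adjusted p = 0.00405). Sdc4, a syndecan that acts with integrins on fibronectin, fell by 0.56 (SE 0.12, adjusted p = 0.00173).

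The integrin subunits that rose were Itgb3, by 2.14 (SE 0.47, adjusted p = 0.00207) to 4.53 CPM, Itga3, by 1.66 (SE 0.33) to 9.59 CPM, and Itgb8, by 0.95 (SE 0.18) to 35.2 CPM. Itgb3 and Itgb8 pair with Itgav, which did not pass the test (47.1 and 40.6 CPM, adjusted p = 0.340). Cd44, a further osteopontin receptor, rose from 126, 70.2 and 96.7 to 140, 139 and 132 CPM (log2 fold change 0.49, SE 0.16, adjusted p = 0.0346). That call was lost with upper-quartile factors (adjusted p = 0.0895) and without 5 of the 6 libraries in turn: control replicate 2 (0.143, log2 fold change 0.30), control replicate 3 (0.119) and trSrebf1 replicates 1 (0.101), 2 (0.0826) and 3 (0.0692). Over all alternatives the adjusted p ran from 7.11e-04 to 0.143. The subunits of the main fibronectin receptor, named after their values were seen, did not pass the test. In control and trSrebf1 respectively, Itga5 stood at 25.6 ± 2.78 and 20.8 ± 4.23 CPM (SD, n = 3, edgeR adjusted p = 0.264). Itgb1 stood at 2522 ± 132 and 2211 ± 97.6 CPM (edgeR adjusted p = 0.147). Libraries of the groups overlapped for Itga5 but not for Itgb1 (2407 to 2666 CPM in control, 2152 to 2324 in trSrebf1). Those of 43.4% of all tested genes did not overlap. Itgb1 passed with library totals as the scale (log2 fold change -0.26, adjusted p = 0.0171), where the median of all tested genes was also lower (-0.08).

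**Figure D4:**
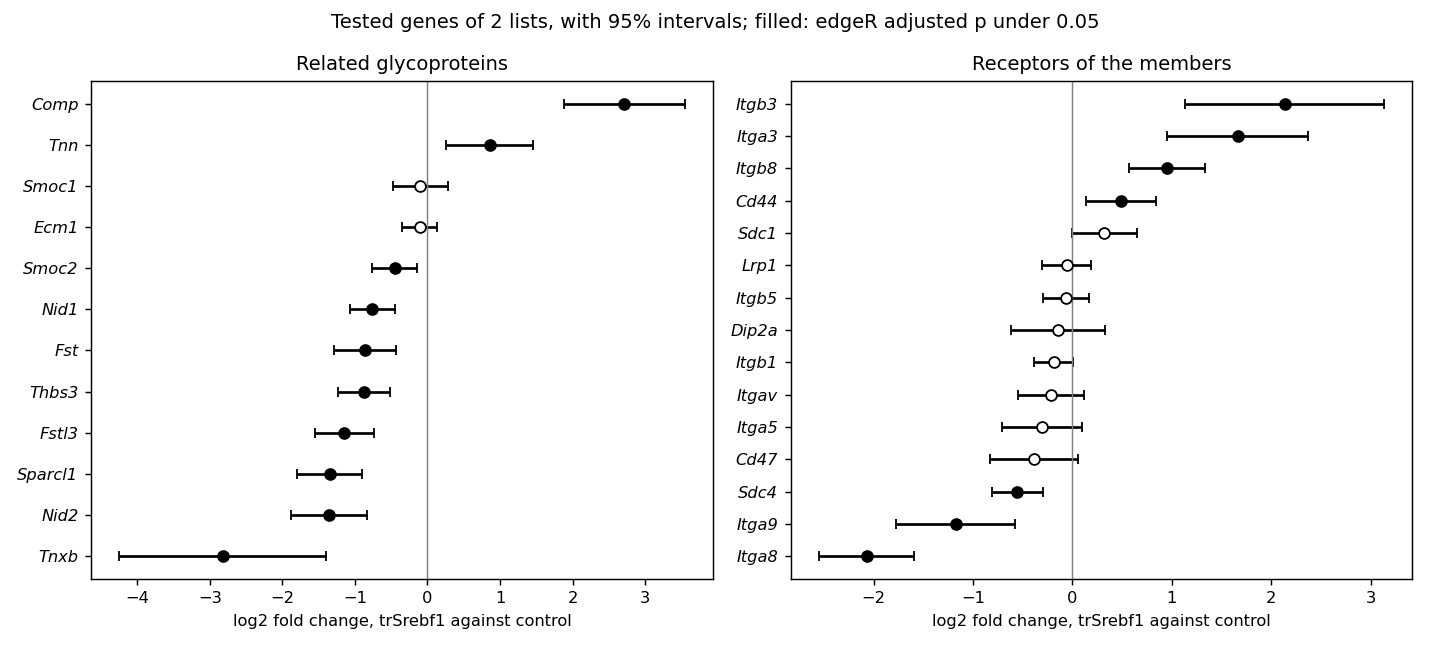
Log2 fold change, trSrebf1 against control (horizontal axes), of the 12 tested related glycoproteins and the 15 tested receptors, with 95% intervals; filled points passed the test. Comp (2.71) and Itgb3 (2.14) lie farthest to the right, and Itga8 (-2.07) is the lowest receptor.

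Markers of other cells that make some of these proteins were summed per library. Platelet markers, of interest because platelets carry thrombospondin 1, summed to 11.1 to 17.6 CPM in control and 60.6 to 68.0 CPM in trSrebf1. Nearly all of the difference came from Gp1bb (9.77 and 61.5 CPM), whose last exon shares 1938 bases with exons of Sept5 and Gm49601 of the same strand, which leaves its value uncertain. Pf4, a defining platelet gene, stood at 2.14 and 0.50 CPM and Itga2b at 0.51 and 0.47 CPM. Pericyte and smooth muscle markers summed to 123 to 137 CPM in control and 214 to 248 CPM in trSrebf1, through Cspg4 (16.4 and 120.5 CPM) and Des (59.8 and 84.2 CPM). Of the 6 tested markers of this list these 2 rose and the other 4 fell, where 17.2% of all tested genes rose and 13.0% fell. Those that fell were Lmod1 from 24.7 to 9.58, Kcnj8 from 12.3 to 5.61, Myh11 from 7.13 to 3.27 and Abcc9 from 6.67 to 2.38 CPM. The median log2 fold change of the 6 was -1.13, beside -0.01 over all tested genes. The calls of Myh11 (adjusted p = 0.0497, groups overlapping) and Abcc9 (0.0242) are near the threshold, and no alternative setting was run for these markers. The part of these markers in the changes above was not tested. Rgs5 stood at 0.09 and 0.08 CPM and Mcam at 0.94 and 0.67 CPM. Epithelial markers (led by Krt19 and Sftpb) summed to 21.2 to 26.4 CPM in control and 8.91 to 29.9 CPM in trSrebf1. Of the 3 tested, Krt19 fell from 12.3 to 5.53 CPM (log2 fold change -1.16, edgeR adjusted p = 0.0317). The other 2 did not pass the test, and 13.0% of all tested genes fell. Sums over all libraries were 18.3 to 35.9 CPM for mesothelium (Upk1b and Msln) and 7.31 to 10.5 for neutrophils (Csf3r and Cxcr2). They were at most 2.06 for endothelium (Kdr and Tek), 1.37 for erythroid cells (Hbb-bs and Hbb-bt) and 0.26 for lymphocytes (Ms4a1).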

How the data were processed

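The method was 3'SAGE-seq (Ion Proton sequencer), in which each polyadenylated transcript is read as a tag from its 3' part, so a gene's length does not scale its count. The deposited tables hold raw counts per gene symbol. Bowtie2 2.2.5 and the build mm10 (GRCm38) are named per the submitters' processing notes, with no role or order. How reads were assigned to genes (tool, annotation, strand) is not given in the sources used here. In GENCODE M21 the last exons of 0 of the 10 members overlap an exon of another gene, and the last 200 bases of 9 share no run of 25 bases with another gene's transcripts. Tnc shares 9 such runs with 41 genes, so its value is less certain.

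The test was that of edgeR 4.0.16 (R 4.3.3): TMM factors, filterByExpr (minimum count 10, minimum total 15), robust quasi-likelihood fit with the group as the only term, prior count 0.125, Benjamini-Hochberg adjustment over 10194 genes and a two-sided threshold of 0.05. The standard error was the log2 fold change over the square root of F, and 95% intervals used the moderated degrees of freedom. The code was tested on simulated data. Alternatives used DESeq2 1.42.0, limma-voom (limma 3.58.1), other scalings and filters, each library left out, and the replicate number as a term. Within a group, libraries compared by pairs gave a chi-square of 4.52 to 8.13 per degree of freedom, where counting alone gives about 1, so no pair agreed within counting noise. This does not show that they are biological replicates. Amplified tags carry no molecular identifiers, so counting errors cover counting only.

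Members and lists (25 related glycoproteins, 17 receptors, fibroblast markers and markers of macrophages, platelets, epithelium, endothelium, lymphocytes, neutrophils, pericytes with smooth muscle, mesothelium and erythroid cells) were chosen with earlier results of these data known. Named were all members, the 5 smallest p of the related glycoproteins and of the receptors, the 2 highest markers of each other cell type, and the 2 genes most alike in pattern to Fn1 and to the members with the largest rise and fall, of which 1 is not reported here. Tnn, Tnxb, Thbs3, Smoc1, Smoc2, Stab1, Cd44, Itga5, Itga9, Itgav, Itgb1, Itgb5 and Lrp1 were named outside this rule, after their values were seen. So were the markers Vim, Col1a1, Pdgfrb, Csf1r, Lyz2, Cd68, Itga2b, Rgs5, Mcam, Lmod1, Kcnj8, Myh11 and Abcc9.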

Additional observations from a re-analysis of the deposited data

How the results depend on the processing

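Over 15 alternative settings (4 scalings, 2 filters, DESeq2, limma-voom, the replicate number as a term and 6 with a library left out), the 7 members called remained called in each, with 2 higher and 5 to 6 lower. The sixth was Sparc with library totals. Upper-quartile factors left 1 of the related glycoproteins higher in place of 2, and leaving out 1 library gave 1 to 3. Leaving out 1 library gave log2 fold changes of -0.20 to 0.055 for Tnc, -0.13 to 0.050 for Itgb5, -0.14 to 0.056 for Lrp1 and -0.21 to 0.059 for Smoc1, none of which passed the test. The call of Smoc2, which fell by 0.45, was lost without control replicate 1 (adjusted p = 0.0962) or trSrebf1 replicate 3 (0.12497). The cause of these changes was not tested. Replicate numbers did not pair the libraries: deviations of same-numbered libraries correlated at 0.00, -0.12 and -0.06. With the replicate block 1646 genes were higher and 1174 lower, in place of 1755 and 1328, and 7 members were called. Low counts limit several genes, among them Itgb3 (2 to 5 control tags), Comp (3 to 7), Tgfbi (11 to 16) and Tnxb (0 to 5 trSrebf1 tags).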

Other observations

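Genes whose pattern over the 6 libraries was most like that of a member were sought among 3771 tested genes averaging 20 CPM or more, by Pearson's r of log2(CPM + 1). These values are a description, since the points share the 2 groups: 253 genes passed r of 0.95 with Fn1, 532 with Tgfbi and 263 with Thbs1. Among the most alike were Adamts15 for Fn1 (r = 0.998), Cd320 and Kdm6a for Tgfbi (r = 0.9996 and 0.999) and Nrbp1 and Plscr3 for Thbs1 (r = 0.999 and 0.997). Likeness of pattern was not likeness of size: the log2 fold change was -1.96 for Adamts15 and -0.32 for Nrbp1, beside -0.68 for Fn1 and -1.23 for Thbs1.

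Stab1, a scavenger receptor with fasciclin domains named after its values were seen, had too few tags to pass the filter on low counts. It had 4, 1 and 5 tags in control and 17, 13 and 9 in trSrebf1 libraries. Along with Tgfbi and Postn it was the other fasciclin gene with a row in the tables on the lists used here.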
